A study of Mus musculus with 16 samples.

Results

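The 45 genes described here encode the machinery of the cell cycle and of DNA replication in cells grown from the mouse coronal suture. They were chosen by name as known proliferation genes, with earlier results of these data known. For each gene the brightest probe set annotated with that symbol alone was used. All 45 were measured, of 22180 named genes on the array, and all 45 were among the 13453 genes bright enough to be tested. By role, 7 genes drive G1 and entry into S phase, 14 belong to DNA replication, 20 to G2 and mitosis, and 4 encode inhibitors of the cyclin-dependent kinases (CDKs).

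RNA was measured on 16 whole-transcript Affymetrix arrays in cells of the coronal suture, which joins the frontal to the parietal bones of the skull. The cells came from C57BL6 mice, either wild type or Twist1+/-, that is, carrying a single intact copy of the gene for the transcription factor Twist1. Both genotypes came from 2 mixed litters. All cells grew in DMEM, with 10% FBS in the stock cultures, and were then kept for 3 or 7 days in DMEM without hormone, which the labels call proliferation medium, or in DMEM with thyroxine, the main hormone of the thyroid gland, dosed at -6 as log10 of mol per liter. This gave 8 groups of genotype, medium and day with 2 arrays each, 1 from female and 1 from male cells. Cells were separated by genotype and sex, which is taken here as 4 cultures of 4 arrays each, with 8 control and thyroxine pairs, although the labels count 8 samples as independent. Each condition had 3 wells. The sources used here do not say whether wells were pooled, how many mice gave cells or their age, and they name no tissue-specific driver for the Twist1 change.

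A dividing cell passes from G1, where D-type cyclins with CDK4 and cyclin E with CDK2 release E2F transcription factors from the retinoblastoma protein, into S phase, where the MCM helicase is loaded at origins and DNA is copied. In G2 and mitosis, cyclins A and B with CDK1 start chromosome condensation and segregation, which motor proteins, checkpoint kinases and kinetochore proteins carry out. RNA of replication genes peaks around the start of S phase and RNA of mitosis genes peaks in G2, so in a mixed culture both groups follow the share of cells in cycle. In sutures, dividing mesenchymal cells at the edges of the bones supply the cells that lay down new bone.

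The arrays were first compared as a whole. Array medians lay between 3.73 and 3.86 on the log2 scale, and a gene was tested where its mean was at least 3.905. The 4 arrays of the wild-type male culture stood apart from the other 12. A list of 9 suture mesenchymal markers, led by Col1a1, Col1a2 and Postn, averaged 8.79 to 9.02 in that culture and 9.96 to 10.38 in the others. A list of 16 macrophage and osteoclast markers, led by Lyz2, Fcer1g and C1qb, averaged 9.73 to 10.07 there at both days, and in the other cultures 7.96 to 8.78 at day 3 and 9.73 to 9.89 at day 7. Macrophage markers were thus well above background in cultures labelled as suture cells. Lists for endothelial, epithelial, muscle and Schwann cells averaged at most 4.58 on any array, close to the bound for testing. The level of Twist1 did not separate the genotypes: it was 6.97 to 7.70 in female and 6.07 to 6.54 in male wild-type arrays, against 6.51 to 7.34 in female and 6.94 to 7.55 in male Twist1+/- arrays. Whether the probe set reads both alleles was not tested, and genotypes are given below as labelled.

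Between day 3 and day 7 most genes of G2 and mitosis fell, while most genes of DNA replication did not pass the test. Of the 45 genes, 17 fell and 1 rose at an adjusted p under 0.05, where 23.6% of all genes tested passed, 11.7% as lower and 11.9% as higher. In the mitosis list 14 of 20 genes fell, and the median difference, day 7 minus day 3, was -0.30 on the log2 scale. In the replication list 2 of 14 fell, Rrm1 and Rrm2, and the median difference was -0.01. The median over all genes tested was -0.02. Of the G1 genes, Ccne1 fell and Ccnd3 rose, and of the CDK inhibitors 0 of 4 passed, with 1 at an unadjusted p under 0.05. Bulk RNA cannot tell fewer cells of a type from less RNA per cell.

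The split between mitosis and replication was seen in each of the 8 comparisons of a day 7 array with the day 3 array of the same culture and medium. The median over the mitosis genes was below 0 in 8 of 8, and the median over the replication genes in 4 of 8. The mitosis median lay under the replication median in 8 of 8, by 0.20 to 0.42. By culture, with both media averaged, the mitosis median was -0.21 and -0.27 in female and male wild-type cells and -0.54 and -0.18 in female and male Twist1+/- cells, with 19, 18, 20 and 17 of the 20 genes lower in that order. Of all genes tested, 7328 of 13453 had a day difference over both genotypes below 0, and the share in each culture was not counted. Over all 45 genes, 12 were lower in 8 of 8 matched comparisons, against 5.75% of all genes, 9 of them mitosis genes. Another count, of genes lower in all 4 cultures, gave 19, against 17.1%, and 15 of these were mitosis genes. The replication medians by culture were 0.04, -0.12, -0.18 and 0.05 in the same order. The medians are descriptions of the lists, which were chosen with earlier results of these data known, and carry no test.

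**Figure D1:**
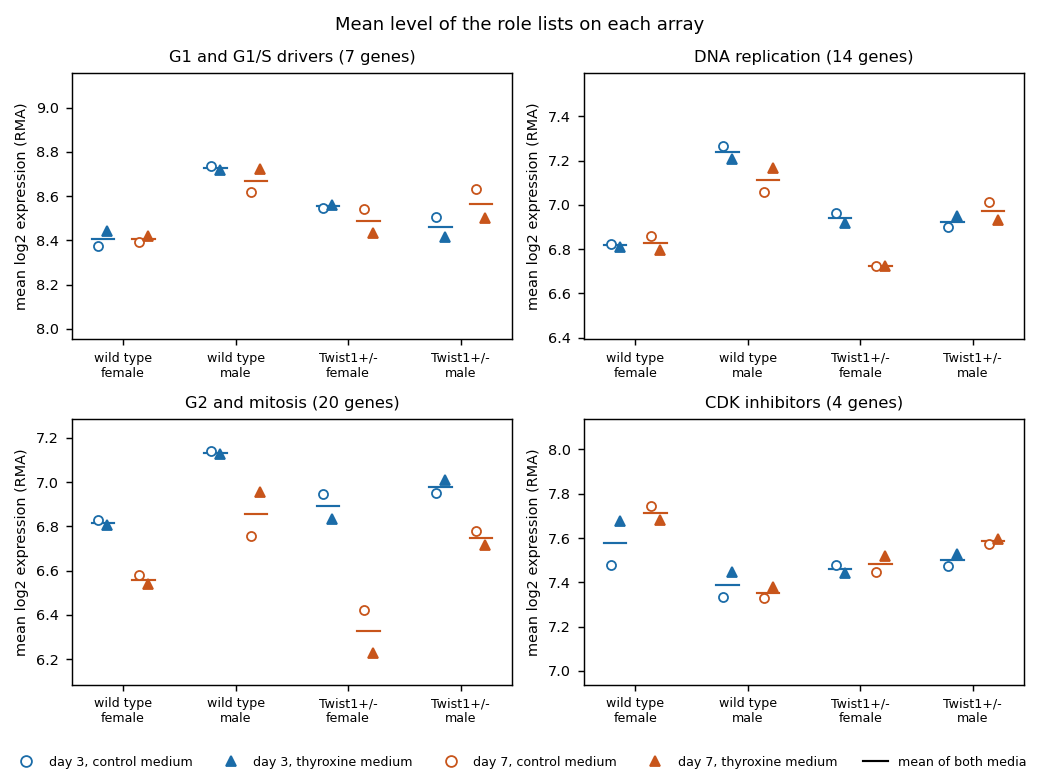
Mean log2 expression of the genes of each role list on each of the 16 arrays, by culture on the x axis, with day 3 in blue, day 7 in orange, control medium as open circles and thyroxine as filled triangles; bars are the mean of both media, and each panel spans the same range. The mitosis list is lower at day 7 than at day 3 in every culture and medium, while the replication list differs in direction between cultures.

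The start regions of these genes hold different motifs, which are described here by role list. A link between a motif and the day difference of a gene was not tested. Of the 45 genes, 36 have an entry in the RefSeq promoter table (GRCm38.p6), each from 250 bases before to 50 bases after a transcription start, and 5 of them have 2 such windows. On both strands, 3 motifs known from cell cycle promoters were searched: the cell cycle homology region, CHR, as TTTGAA or as TTCGAA; the CCAAT box, as CCAAT; and the E2F core, as TTCCCGC, as TTGGCGC, as TTCGCGC or as TTGCCGC. The CHR is known to recruit the DREAM and MuvB complexes, the CCAAT box the factor NF-Y, and the E2F core the E2F factors. Some E2F core matches on opposite strands overlap. A CHR match was found in 13 of 16 mitosis genes with an entry (81.2%), in 3 of 12 replication genes (25%) and in 21.7% of the 27025 genes of the table. An E2F core match was found in 2 of 16 mitosis genes (12.5%), in 8 of 12 replication genes (66.7%) and in 10.9% of all genes. A CHR together with a CCAAT box was present in 13 of 16, in 3 of 12 and in 8.61%. Of the mitosis genes that fell with day, 11 of 13 with an entry held a CHR, against 13 of 16 in the whole list. Of those with an entry that did not pass, Bub1b and Kif11 held a CHR and Nusap1 did not. A match is a description of these letters, and binding was not measured.

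The 180 bases before the start are printed for mitosis genes that fell with day and hold a CHR (Cdc20, Mki67, Cdk1 and Top2a). They are also printed for the replication gene Rrm1, which fell, and for Mcm6 and Mcm5, which did not pass. Each runs 5′ to 3′ on the strand of the gene, and capitals mark every match to the motifs above on either strand (on the other strand, ATTGG is a CCAAT box, TTCAAA is a CHR, and GCGCGAA and GCGCCAA are E2F cores).
Cdc20, chr4:118437344-118437523, minus strand: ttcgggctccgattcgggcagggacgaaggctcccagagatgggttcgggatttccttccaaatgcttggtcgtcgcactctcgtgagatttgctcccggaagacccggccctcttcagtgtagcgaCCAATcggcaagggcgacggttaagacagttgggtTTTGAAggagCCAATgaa
Mki67, chr7:135716380-135716559, minus strand: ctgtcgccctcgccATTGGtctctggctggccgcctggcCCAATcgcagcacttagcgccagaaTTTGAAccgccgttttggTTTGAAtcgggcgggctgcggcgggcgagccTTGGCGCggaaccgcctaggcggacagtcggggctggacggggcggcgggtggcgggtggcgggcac
Cdk1, chr10:69352913-69353092, minus strand: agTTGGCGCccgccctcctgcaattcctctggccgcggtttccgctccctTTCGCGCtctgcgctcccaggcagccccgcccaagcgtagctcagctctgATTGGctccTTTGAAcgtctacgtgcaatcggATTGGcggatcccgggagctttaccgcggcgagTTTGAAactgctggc
Top2a, chr11:99024190-99024369, minus strand: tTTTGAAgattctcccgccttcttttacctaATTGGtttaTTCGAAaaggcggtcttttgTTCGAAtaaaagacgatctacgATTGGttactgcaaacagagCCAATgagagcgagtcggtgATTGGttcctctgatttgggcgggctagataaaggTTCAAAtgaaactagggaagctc
Rrm1, chr7:102441515-102441694, plus strand: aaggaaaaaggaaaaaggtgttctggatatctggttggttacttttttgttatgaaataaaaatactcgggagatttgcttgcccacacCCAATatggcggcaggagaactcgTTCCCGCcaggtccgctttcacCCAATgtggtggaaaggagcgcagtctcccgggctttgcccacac
Mcm6, chr1:128359706-128359885, minus strand: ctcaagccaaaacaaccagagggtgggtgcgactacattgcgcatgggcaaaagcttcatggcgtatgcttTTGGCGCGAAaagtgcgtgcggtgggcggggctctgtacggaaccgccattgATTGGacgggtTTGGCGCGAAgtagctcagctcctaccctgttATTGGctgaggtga
Mcm5, chr8:75109329-75109508, plus strand: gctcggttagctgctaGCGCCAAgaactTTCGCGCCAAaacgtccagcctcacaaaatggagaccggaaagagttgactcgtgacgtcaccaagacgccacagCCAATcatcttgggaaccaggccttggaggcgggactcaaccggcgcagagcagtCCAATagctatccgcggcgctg

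In Cdc20 the CHR began 18 bases before the start with CCAAT boxes 53 and 8 bases before it. Cdk1 and Mki67 held a CHR, CCAAT boxes and an E2F core together. Top2a held 4 CHR matches, 2 of them as TTCGAA, which reads the same on both strands, and 4 CCAAT boxes. Rrm1, Mcm6 and Mcm5 held E2F cores and CCAAT boxes, and no CHR was found in their windows. The printed genes are examples. Cenpe and Birc5, mitosis genes that fell and have an entry, held no CHR and are not printed. Mki67 and Cdk1 are the 2 mitosis genes with an entry that held an E2F core.

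Among the mitosis genes, the differences were largest for Cenpe and Kif20a. Cenpe encodes the kinesin CENP-E, which moves chromosomes to the spindle equator. Its level was 6.35 to 6.99 at day 3 with a median of 6.58 and 5.19 to 6.31 at day 7 with a median of 5.92. Every day 7 array lay below every day 3 array, as for 0.505% of all genes. The difference was -0.76 (SE 0.10, adjusted p = 0.00014), a level at day 7 of 0.589 times that at day 3 (95% interval 0.510 to 0.679). By culture it was -0.88 and -0.25 in female and male wild-type cells, and -1.12 and -0.81 in female and male Twist1+/- cells.

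Kif20a encodes the kinesin of the central spindle that works in cytokinesis. It measured 7.51 to 7.91 at day 3, median 7.74, and 6.45 to 7.51 at day 7, median 7.12. The groups met at a single value, 7.51, and all 8 matched comparisons were lower. The difference was -0.65 (SE 0.08, adjusted p = 0.00017), a ratio of 0.639. It was -0.60 and -0.40 in wild-type female and male cells, and -1.06 and -0.54 in Twist1+/- female and male cells.

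Mki67 encodes Ki-67, the protein used to stain cycling cells, which coats mitotic chromosomes. It measured 7.87 to 8.70 at day 3, median 8.22, and 6.83 to 8.19 at day 7, median 7.85, so the days overlapped. The difference was -0.52 (SE 0.10, adjusted p = 0.0022). It was lower in 6 of 8 matched comparisons, and the wild-type male culture was the exception, where it was higher by 0.09 in control medium and by 0.20 with thyroxine. Cenpf, a protein of the outer kinetochore, measured 5.50 to 5.86 at day 3, median 5.63, and 4.54 to 5.64 at day 7, median 5.08. It fell by 0.51 (SE 0.09, adjusted p = 0.0013), and by culture the difference was between -0.81 in Twist1+/- female and -0.05 in wild-type male cells. The wild-type male culture moved least for Cenpe, Kif20a, Mki67 and Cenpf, but this did not hold for the whole mitosis list. It fell most of the cultures for Birc5 (-0.66) and Top2a (-0.43). The median over the mitosis genes was -0.27 in that culture and closest to zero in Twist1+/- male cells (-0.18).

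Cdc20, the activator of the anaphase-promoting complex, measured 7.21 to 7.47 at day 3, median 7.30, and 6.26 to 7.49 at day 7, median 6.81. Its difference was -0.48 (SE 0.10, adjusted p = 0.0030), and 7 of 8 matched comparisons were lower. The highest day 7 array, wild-type male with thyroxine, lay above all day 3 arrays, and the other 7 lay below them. The kinase gene Plk1 measured 7.72 to 8.48 at day 3 and 7.32 to 8.16 at day 7 and fell by 0.35 (SE 0.07, adjusted p = 0.0022), in 8 of 8 matched comparisons. Aurka, which encodes the kinase of the spindle poles, fell by 0.43 (SE 0.09, adjusted p = 0.0028), also in 8 of 8.

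The other mitosis genes that fell were Birc5, Kif23, Prc1, Ccnb2, Top2a, Cdk1 and Bub1, by 0.26 to 0.40. Birc5 encodes survivin of the chromosomal passenger complex, Kif23 and Prc1 act at the central spindle, Ccnb2 and Cdk1 form a cyclin B kinase, Top2a untangles sister DNA and Bub1 is a kinase of the spindle checkpoint. Top2a measured 7.48 to 7.94 at day 3 and 7.20 to 7.73 at day 7, with 8 of 8 matched comparisons lower and a difference of -0.28 (SE 0.06, adjusted p = 0.0030). The 6 that did not pass were Ccna2 (-0.22, adjusted p = 0.0501), Foxm1 (-0.16), Kif11 (-0.15), Aurkb (-0.14), Bub1b (-0.14) and Nusap1 (0.04). Nusap1, a microtubule bundling protein, differed by 0.46 in wild-type female and by -0.41 in wild-type male cells.

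**Figure D2:**
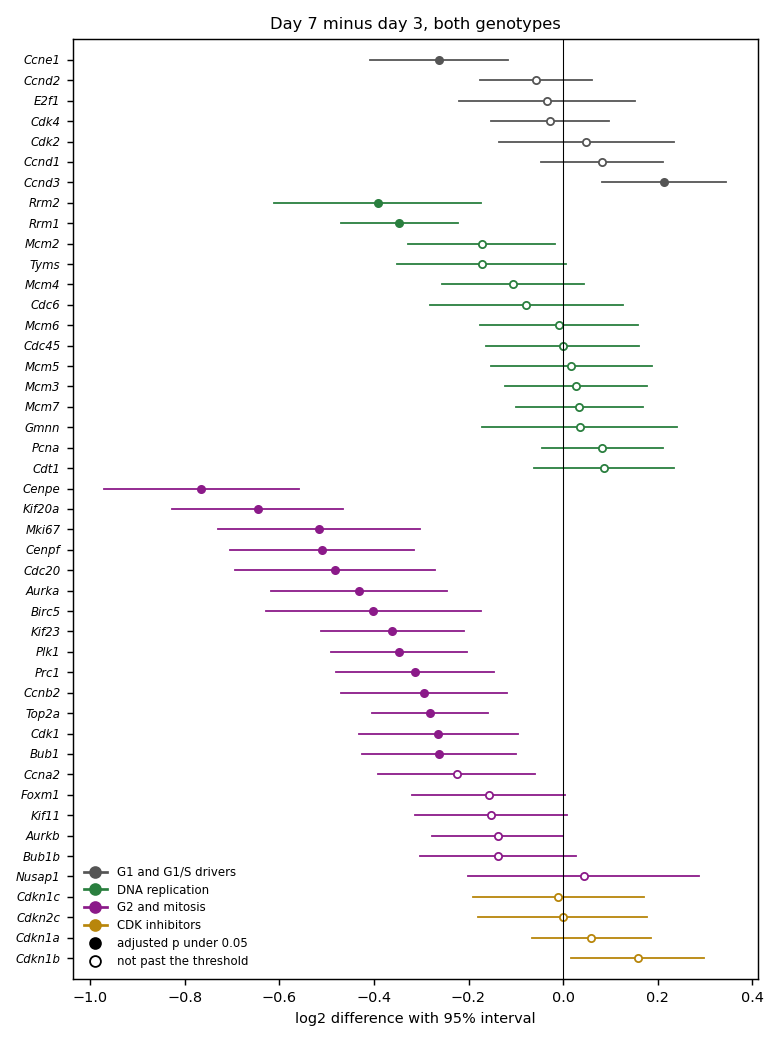
Difference in log2 expression, day 7 minus day 3, of each of the 45 genes over both genotypes and media (16 arrays), with the 95% interval of the fit as a line, coloured by role and ordered within a role; filled points passed an adjusted p of 0.05. The mitosis genes reach from -0.76 (Cenpe) to 0.04 (Nusap1), and the replication genes from -0.39 (Rrm2) to 0.09 (Cdt1).

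Within DNA replication, the genes that fell were the subunits of ribonucleotide reductase, the enzyme that makes deoxynucleotides. Rrm1, its large subunit, measured 8.92 to 9.17 at day 3, median 9.04, and 8.51 to 8.90 at day 7, median 8.71. No day 7 array reached a day 3 array. The difference was -0.35 (SE 0.06, adjusted p = 0.00083), a ratio of 0.787, and it was -0.28 and -0.20 in female and male wild-type cells and -0.59 and -0.30 in female and male Twist1+/- cells. Rrm2, its small subunit, measured 6.95 to 7.92 at day 3 and 6.33 to 7.39 at day 7. It fell by 0.39 (SE 0.10, adjusted p = 0.0128) and was lower in 8 of 8 matched comparisons, by as little as 0.03 in the Twist1+/- male cells.

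The helicase and its loaders did not pass. Mcm2 differed by -0.17 (95% interval -0.33 to -0.02, adjusted p = 0.104), and the other 5 helicase genes measured, Mcm3 to Mcm7, differed by -0.11 to 0.03. Mcm5 had the interval -0.15 to 0.19 around 0.02, with 6.68 to 7.74 at day 3 and 6.73 to 7.56 at day 7. Pcna, the sliding clamp of the DNA polymerases, measured 8.77 to 9.45 at day 3 and 8.77 to 9.58 at day 7, a difference of 0.08 (interval -0.05 to 0.21). The genes of licensing and its control, Cdc6, Cdt1 and Gmnn, differed by -0.08, 0.09 and 0.04, and the helicase factor Cdc45 by -0.00. Tyms, thymidylate synthase, differed by -0.17 (adjusted p = 0.158). The lower bound for Mcm2 lies beyond the differences of Bub1 and Cdk1, and the lower bounds for Mcm5 and Pcna lie above the upper bound for Cenpe, which was -0.56.

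Among the drivers of G1, Ccne1, which encodes cyclin E1, measured 6.14 to 6.89 at day 3, median 6.58, and 5.98 to 6.75 at day 7, median 6.26. The days overlapped, while 8 of 8 matched comparisons were lower, and the difference was -0.26 (SE 0.07, adjusted p = 0.0132). Ccnd3, cyclin D3, moved the other way, from 8.06 to 8.44 at day 3 to 8.35 to 8.62 at day 7, a difference of 0.21 (SE 0.06, adjusted p = 0.0218), higher in 6 of 8. The other D-type cyclins, Ccnd1 and Ccnd2, differed by 0.08 (adjusted p = 0.370) and -0.06 (0.514), and Cdk4, Cdk2 and E2f1 by -0.03, 0.05 and -0.03. Of the inhibitors, Cdkn1b, which encodes p27, measured 5.89 to 6.95 at day 3 and 6.17 to 7.16 at day 7, a difference of 0.16 (adjusted p = 0.0996), higher in 7 of 8. Cdkn1a (p21), Cdkn1c (p57) and Cdkn2c (p18) differed by 0.06, -0.01 and -0.00.

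Further genes of the same processes, which are not among the 45, were tested in the same fit. The counts below compare with 11.7% of all genes that passed as lower and 11.9% as higher. Of 28 other mitosis genes tested, 13 fell and 0 rose, with a median of -0.20. Anln (anillin, of the cleavage furrow) fell by 0.73, Kif4 (a chromosome kinesin) by 0.63 and Tpx2 (a spindle assembly factor) by 0.52, with adjusted p of 0.00023, 0.00067 and 0.00052. Of 22 other replication genes, 4 fell and 0 rose, with a median of -0.08. These were Orc6, of the origin recognition complex (-0.42, adjusted p = 0.00085), Rfc5, Gins2 and Pole. In a list of 19 pocket proteins, other E2F factors, cyclins and INK4 inhibitors, 4 rose and 2 fell. The 3 pocket proteins all rose: Rb1, the retinoblastoma protein, by 0.34 (adjusted p = 0.00032), Rbl2 (p130) by 0.35 (0.0012) and Rbl1 (p107) by 0.24 (0.0093). Cdk6, a partner of the D-type cyclins, rose by 0.37 (0.0032), and E2f6 and E2f5, which encode repressive E2F factors, fell by 0.31 and 0.24. Within wild-type cells 0 genes of this list passed as higher and within Twist1+/- cells 4. Rb1 differed by 0.12 in wild-type and 0.57 in Twist1+/- cells, Rbl1 by 0.01 and 0.46, Cdk6 by 0.17 and 0.56 and Rbl2 by 0.28 and 0.42. The difference between genotypes did not pass for any of these 4, with adjusted p from 0.336 to 0.684. Of 13 p53 target genes 1 rose, Sesn1 (0.49, adjusted p = 0.00062), and 1 fell, Aen (-0.26, 0.0369).

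The calls for day leaned on the Twist1+/- female culture. Without it, 3 of the 45 genes passed, Cenpe, Kif20a and Rrm1, and the medians were -0.22 for mitosis and 0.06 for replication genes. Without the Twist1+/- male, the wild-type female or the wild-type male culture, 15, 14 and 13 passed. Cenpe, Kif20a and Rrm1 passed in each of these, whereas Birc5, Bub1, Ccnb2, Cdk1, Rrm2, Ccnd3 and Ccne1 each missed the threshold without at least 1 culture other than Twist1+/- female. In a fit without the culture as a block, 5 genes passed, Cenpe, Kif20a, Rrm1, Cdc20 and Cenpf. In the 8 control-medium arrays alone 3 passed, Cenpe, Kif20a and Mki67.

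Markers of the macrophage and osteoclast list moved with day beside the mitosis genes, and 15 of 16 rose, with a median of 1.21. The exception was Acp5, which encodes the acid phosphatase of osteoclasts and was the dimmest of the list, with a difference of -0.12. The list mean was 7.96 to 9.74 at day 3 and 9.73 to 10.07 at day 7. It went from 8.37 to 9.84 in female wild-type cells, from 8.06 to 9.79 and from 8.61 to 9.87 in female and male Twist1+/- cells, and from 9.74 to 9.94 in male wild-type cells. In the male wild-type culture the mean of the mitosis list went from 7.13 to 6.86, and in the others from 6.82 to 6.56, from 6.89 to 6.33 and from 6.98 to 6.75, in the order given above. Of 9 mesenchymal markers 2 fell and 0 rose, with a median of -0.02. For both lists, the shares over all genes tested were 11.9% passed as higher and 11.7% as lower. The part of the cell mixture in the size of the day differences was not tested.

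**Figure D3:**
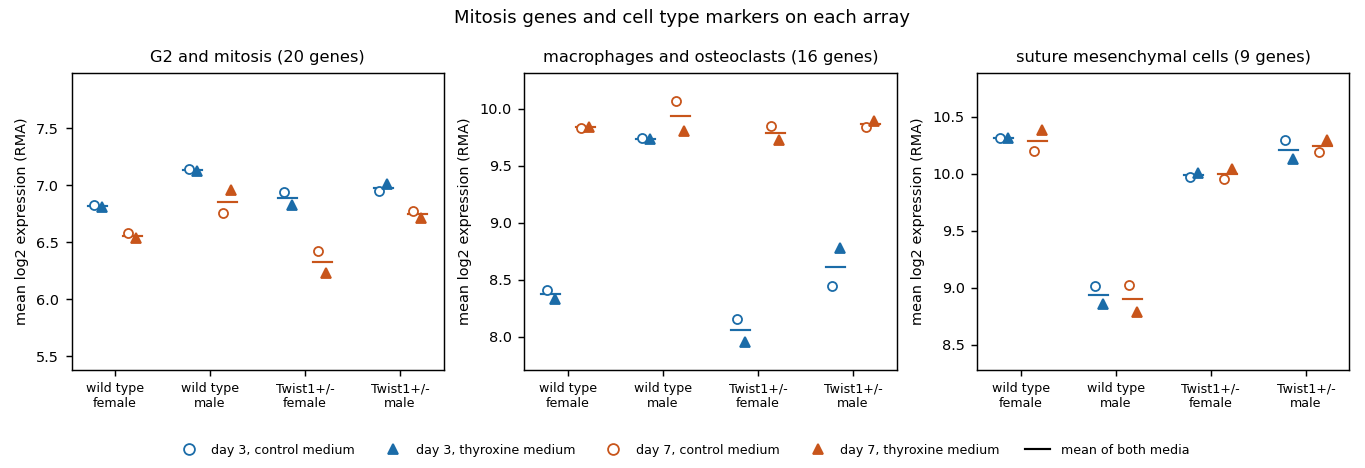
Mean log2 expression of the 20 mitosis genes, the 16 macrophage and osteoclast markers and the 9 suture mesenchymal markers on each array, by culture, day and medium (symbols as in the legend; bars are means of both media). The mean of the macrophage and osteoclast list is high at both days in wild-type male cells and higher at day 7 than at day 3 in the other cultures, whereas the mitosis list is lower at day 7 in all 4.

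The fall with day was then taken within each genotype as labelled. In wild-type cells 3 of 45 genes passed, all as lower, against 3.81% of all genes and 1.87% as lower: Top2a (-0.36, SE 0.08, adjusted p = 0.0333), Cenpe (-0.56, 0.13, 0.0407) and Kif20a (-0.50, 0.12, 0.0410). In Twist1+/- cells 12 passed, against 20% of all genes, 11 as lower (8.21% of all genes) and Ccnd3 as higher (11.8%), by 0.32 (adjusted p = 0.0211). The lower genes were Cenpe (-0.97), Mki67 (-0.86), Kif20a (-0.80), Cenpf (-0.68), Cdc20 (-0.64), Aurka (-0.48), Rrm1 (-0.45), Plk1 (-0.43), Kif23 (-0.43), Prc1 (-0.42) and Ccnb2 (-0.35). Tested directly, the difference between the genotypes passed for 0 of 45 genes and for 0% of all genes, with 1 of 45 and 1474 of 13453 at an unadjusted p under 0.05. That gene was Mki67, with -0.69 for Twist1+/- minus wild type (95% interval -1.12 to -0.26, unadjusted p = 0.0041, adjusted p = 0.361). It was -0.38 without the wild-type male culture. The wild-type calls were lost, with 0 of 45 left, without either Twist1+/- culture or the wild-type female culture. They were also lost, with 0 left, with no culture block, with culture as a random block, with no bound on brightness and with no intensity trend. The Twist1+/- calls fell to 0 without the female culture, and to 4 with no culture block. Without the female culture the differences were also smaller, at -0.54 for Kif20a, -0.35 for Cdc20, -0.30 for Rrm1 and Kif23, -0.27 for Plk1, -0.24 for Aurka, -0.18 for Prc1 and -0.17 for Ccnb2. Those of Cenpe, Mki67 and Cenpf were -0.81, -0.68 and -0.56. Without the wild-type female culture, Mki67 passed for the difference (-1.01, adjusted p = 0.0081), with the male culture alone as wild type.

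**Figure D4:**
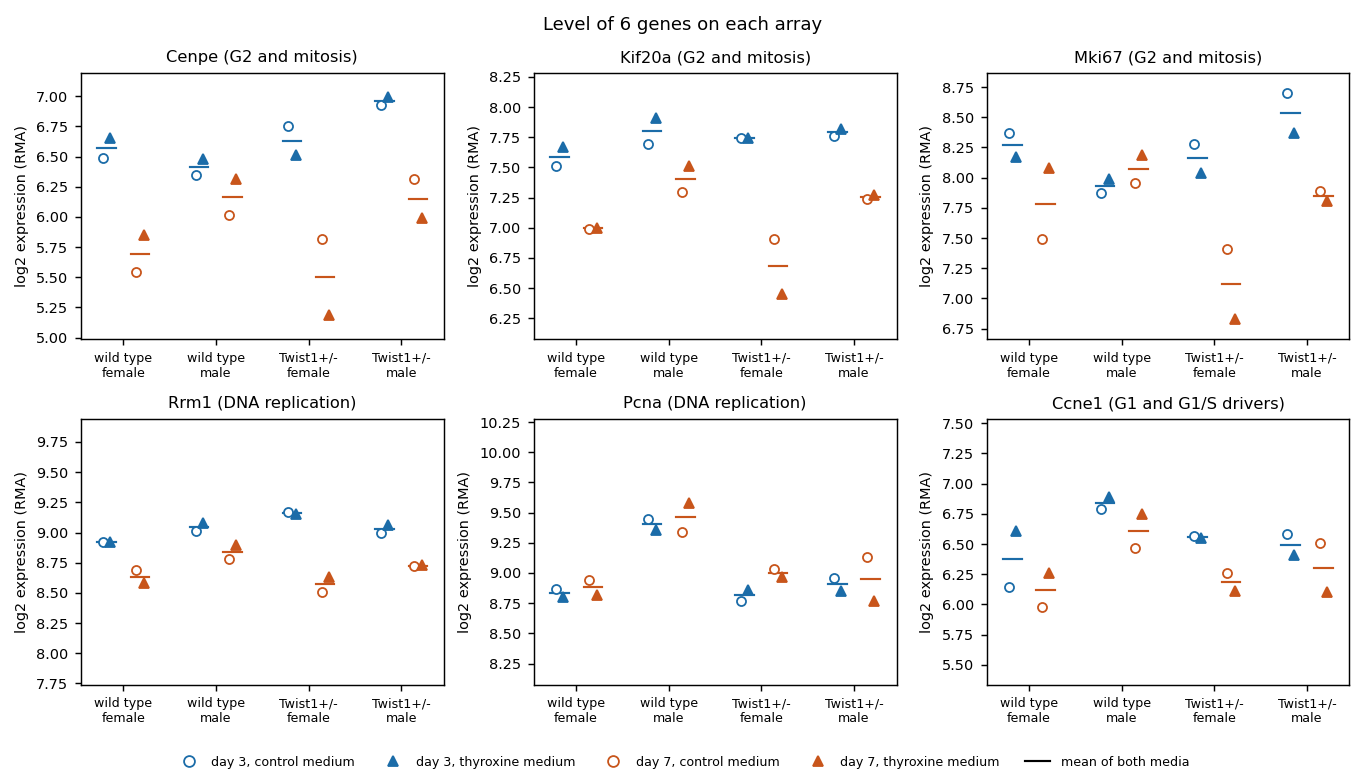
Log2 expression of 6 genes on each of the 16 arrays, by culture, day (blue, orange) and medium (open circles control, filled triangles thyroxine), each panel over the same range of log2 units; bars are means of both media. Cenpe, Kif20a and Rrm1 are lower at day 7 in every culture, Mki67 is not in wild-type male cells, Pcna is highest in wild-type male cells at both days, and Ccne1 is higher with thyroxine in each wild-type pair and lower in each Twist1+/- pair.

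The wild-type male cells were then compared with the other cultures. All 4 of their arrays lay above all 12 others for Ccnd1, Cdt1, Mcm7 and Pcna, as for 2.26% of all genes, and below them for Cdkn1b, as for 5.29%. Pcna was 9.34 to 9.58 there and 8.77 to 9.13 elsewhere, and Ccnd1, cyclin D1, 10.37 to 10.68 against 9.78 to 10.11. Cdt1, which loads the helicase, was 7.67 to 7.86 against 7.05 to 7.50. Cdkn1b was 5.89 to 6.19 against 6.52 to 7.16. Over the lists, 14 of 14 replication genes and 19 of 20 mitosis genes averaged higher in wild-type male cells than in the other cultures, with median differences of 0.30 and 0.31. So did 20 of 22 other replication genes, 26 of 28 other mitosis genes, 14 of 19 in the pocket protein list and 5 of 13 p53 targets. The share over all genes was not counted, so it is not known whether these counts exceed it. Culture, its mice and its cell mixture cannot be told apart in these differences, since a single culture carries them.

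Between genotypes 0 of the 45 genes passed, in both days together, at day 3 or at day 7, and 0% of all genes passed in each. Of the 13453 genes, 619, 699 and 989 had an unadjusted p under 0.05 in that order, and of the 45, 1 in both days together. Taking Twist1+/- minus wild type over both days, 35 of 45 differences were below 0, 19 of 20 for mitosis and 10 of 14 for replication, and the median was -0.10. Over all 13453 genes 5964 were below 0 and 7436 above. In both days together the lowest p was that of Mcm5, which differed by -0.30 (95% interval -0.55 to -0.05, unadjusted p = 0.0231, adjusted p = 0.937). At day 3 alone Mcm5 differed by -0.38 (interval -0.68 to -0.07, unadjusted p = 0.0193, adjusted p = 0.909). Mcm5 was 7.01 to 7.22 in female and 7.41 to 7.74 in male wild-type arrays, and 6.68 to 7.14 in female and 7.07 to 7.41 in male Twist1+/- arrays, so that the genotypes overlapped. For Pcna the difference was -0.23 (interval -0.48 to 0.03), made of 0.05 between the female and -0.51 between the male cultures. Cdk1 differed by -0.25 (interval -0.50 to 0.01) and Cdt1 by -0.20. At day 7 Mki67 differed by -0.45 (interval -0.89 to -0.00, unadjusted p = 0.0480, adjusted p = 0.675). That value was -0.07 without the Twist1+/- female and -0.82 without the Twist1+/- male culture.

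By sex, the median over the replication genes was 0.02 between the female and -0.19 between the male cultures, and over the mitosis genes -0.08 and -0.18. Over both sexes, the D-type cyclins differed by -0.16 (Ccnd1), 0.10 (Ccnd2) and 0.01 (Ccnd3), and the inhibitors Cdkn1a, Cdkn1b, Cdkn1c and Cdkn2c by 0.02, 0.18, -0.00 and -0.19, with adjusted p from 0.937 to 0.998. Mesenchymal markers were higher by a median of 0.50 in Twist1+/- cells, made of -0.24 between the female and 1.07 between the male cultures. The median for macrophage markers was -0.41, made of -0.15 and -0.62. Their part in the genotype differences was not tested. Leaving out the wild-type female, Twist1+/- female or wild-type male culture gave 12, 7 and 1 of 45 genes past the threshold, but a genotype is then a single culture, and the p-value measures only the spread between its arrays.

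**Figure D5:**
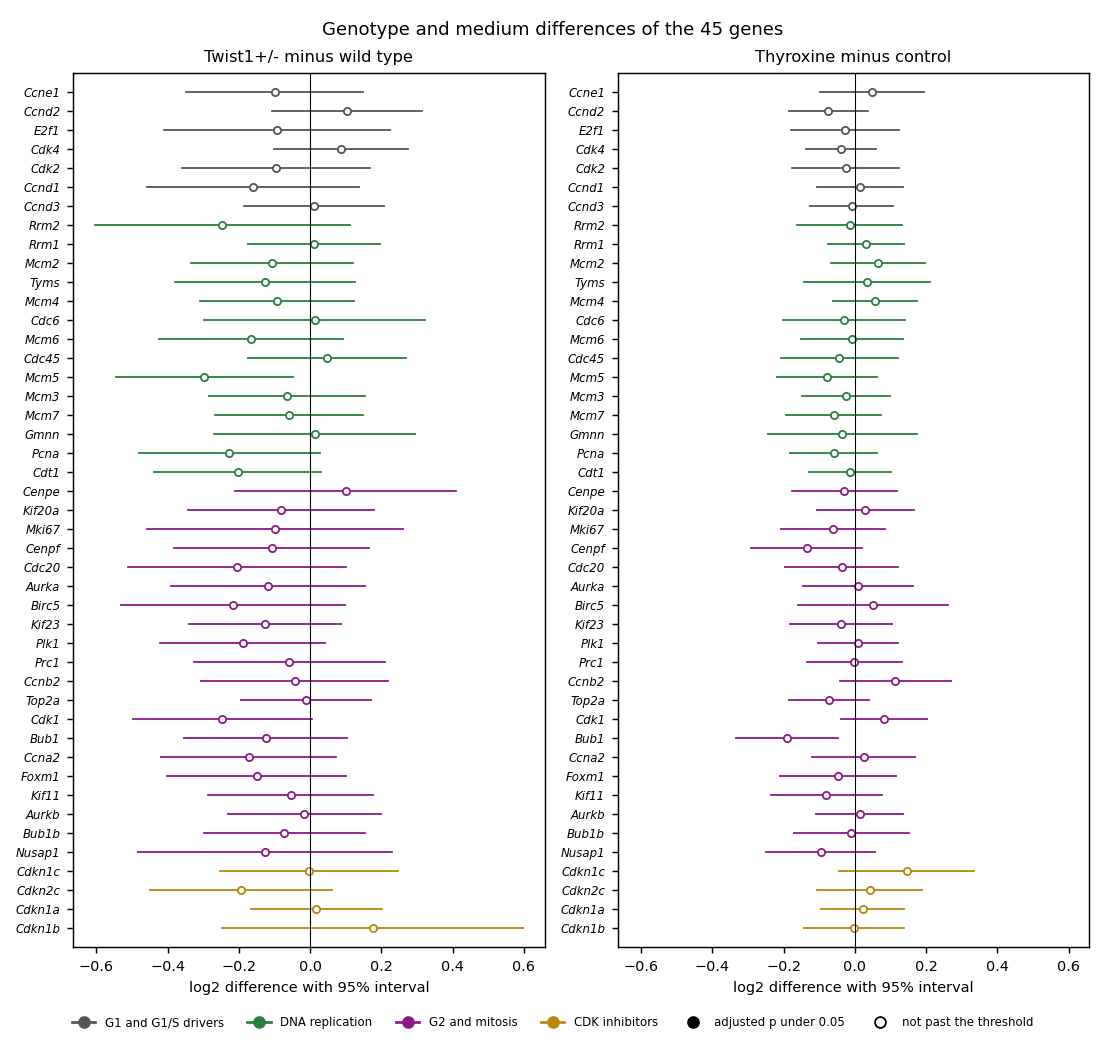
Differences in log2 expression of the 45 genes, Twist1+/- minus wild type (left, 16 arrays) and thyroxine minus control (right, 8 pairs), with 95% intervals, coloured by role and in the order of the day differences. No gene passed an adjusted p of 0.05 in either, and the thyroxine differences lie between -0.19 (Bub1) and 0.15 (Cdkn1c).

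Thyroxine was tested within the 8 pairs of arrays. Over all pairs 0 of 45 genes passed, against 0.0966% of all genes, and 1 of 45 and 825 of 13453 had an unadjusted p under 0.05. That gene was Bub1, lower by 0.19 in the mean of the pairs (SE 0.07, unadjusted p = 0.0133, adjusted p = 0.740, lower in 6 of 8). The medians were -0.02 for mitosis and -0.02 for replication genes. Cenpf was lower in 8 of 8 pairs, as for 0.357% of all genes, with a difference of -0.14 (interval -0.29 to 0.02, adjusted p = 0.829), and by as little as 0.02. Cdkn1c differed by 0.15 (adjusted p = 0.846). The 95% intervals of the 45 genes lay between -0.33 and 0.34.

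Within wild-type cells 0 of 45 passed, against 0.0149% of all genes, and 3 of 45 and 752 of 13453 had an unadjusted p under 0.05. The 3 were Ccne1 (0.28, adjusted p = 0.840), Cdkn1c (0.33, 0.840) and Cenpe (0.22, 0.859). Within Twist1+/- cells 0 passed, against 0.201%, and 4 of 45 and 1397 of 13453 had an unadjusted p under 0.05. The 4 were Mki67 (-0.31, 0.330), Ccnb2 (0.31, 0.346), Cenpe (-0.28, 0.354) and Bub1 (-0.24, 0.421). At 3 days 0 passed, against 0%, with 410 of 13453 genes and 0 of 45 at an unadjusted p under 0.05, and at 7 days 0 passed, against 0.156%. The difference between genotypes passed for 0 of 45 genes, against 0.0595%, while 10 of 45 and 1282 of 13453 had an unadjusted p under 0.05. The lowest were Cenpe (-0.51, 95% interval -0.80 to -0.21, adjusted p = 0.353), Mki67 (-0.49, -0.79 to -0.20, 0.353) and Ccne1 (-0.47, -0.76 to -0.18, 0.363).

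Cenpe was higher with thyroxine by 0.13 to 0.31 in the 4 wild-type pairs, and in the Twist1+/- pairs it differed by -0.24, -0.63, 0.06 and -0.32. Mki67 differed by -0.20, 0.59, 0.12 and 0.23 in wild-type pairs and was lower by 0.08 to 0.58 in all 4 Twist1+/- pairs. Ccne1 was higher by 0.10 to 0.47 in all 4 wild-type pairs and lower by 0.02 to 0.41 in all 4 Twist1+/- pairs, and opposite signs in all pairs were found for 1 of 45 genes and 0.989% of all genes. Ccnb2 was higher in 3 of 4 Twist1+/- pairs, by 0.37 to 0.57, and lower in 3 of 4 wild-type pairs. Without the Twist1+/- female pair at 3 days, 1 gene passed within Twist1+/- cells and 1 for the difference between genotypes.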

How the data were processed

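The authors deposited log2 expression per probe set, computed by RMA with Expression Console of Affymetrix, per the submitters' processing notes. RMA subtracts background, equalises the distributions of the arrays and summarises probes, so that a shift common to all genes is removed and differences near background are compressed. The sources used here do not give versions, genome build or annotation. From 41345 probe sets, 23521 with a single symbol gave 22180 genes, of which 13453 whose mean reached 3.905 (percentile 40 of the named probe sets) were tested.

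Differences were fitted over all 16 arrays with limma 3.58.1 in R 4.3.3 (lmFit, eBayes with an intensity trend, two-sided, Benjamini-Hochberg over 13453 genes). Day was compared within cultures (culture as a fixed block, 6 residual degrees of freedom), thyroxine within pairs of arrays (pair as a fixed block, 4), and genotype with sex as a term and culture as a random block (statmod 1.5.0, correlation 0.202, 7). The blocks come from the labels. For the pairs, male minus female differences in control and thyroxine medium correlated at 0.771 and 0.721 in wild-type cells at 3 and 7 days. In Twist1+/- cells these values were 0.119 and 0.393. For the cultures, male minus female differences at day 3 and day 7 correlated at 0.572 and 0.558 in wild-type cells in control and thyroxine medium. In Twist1+/- cells these values were 0.140 and 0.353. With 1 culture per genotype and sex, p-values measure the spread between arrays and not between animals. The number of arrays limits the precision. The fits were tested on simulated data. Alternatives were no bound on brightness, no trend, the mean of all probe sets of a gene, other blocks, control medium only and leaving out cultures or pairs. Named were all D-type cyclins and inhibitors for day and genotype and up to 6 genes per role with the smallest p in a comparison, with the rest by range. Of other lists the 3 smallest p were named. Rbl1, E2f6, E2f5, Gins2, Pole and genes whose calls depend on a culture were added after their values were seen. The members and lists were chosen with earlier results of these data known.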

Additional observations from a re-analysis of the deposited data

Results flagged for a closer look

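Ccne1, which encodes cyclin E1, was flagged because its thyroxine minus control differences had opposite signs in the pairs of the genotypes, although it passed in no thyroxine comparison. The difference between genotypes in the thyroxine effect, Twist1+/- minus wild type, was -0.47 on the log2 scale (95% interval -0.76 to -0.18, unadjusted p = 0.0041, adjusted p = 0.363 with limma), so it did not pass. Thyroxine minus control was 0.47 and 0.28 at 3 and 7 days in wild-type female and 0.10 and 0.28 in wild-type male cells. It was -0.02 and -0.15 in Twist1+/- female and -0.17 and -0.41 in Twist1+/- male cells. All 4 wild-type pairs were higher and all 4 Twist1+/- pairs lower, as opposite signs in all pairs were seen for 0.989% of all genes tested. The smallest of these differences, -0.02, is close to 0.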

How the results depend on the processing

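The median day differences of the mitosis and replication genes were -0.41 to -0.22 and -0.08 to 0.06 when a culture was left out. Of the 45 genes, the count past the threshold for day was 18 in the fit reported, 5 with no replicate block and 3 in control medium only. It was 3 in wild-type cells and 0 with no bound on brightness, with no trend, with culture as a random block, with no replicate block and in control medium only. It was 12 in Twist1+/- cells, 4 with no replicate block and 2 in control medium only. Control medium only has fewer arrays, and for the other settings the cause was not tested. Leaving out a culture gave 3 to 15 genes for day, 0 to 3 in wild-type and 0 to 12 in Twist1+/- cells, 0 to 1 for their difference, and for genotype 0 to 12 over both days, 0 to 9 at 3 days and 0 to 4 at 7 days. Leaving out a culture or pair gave 0 to 1 for thyroxine in Twist1+/- cells and for the difference between genotypes, and 0 to 0 for all pairs, wild type, 3 days and 7 days. Of these counts and medians, 66 values under other settings and 93 with a culture or pair left out stayed within the spread or within 1.5 times. Beyond that moved 9 and 15 values, in the same order. A count of 0 that remained 0 was taken as having stayed. Single genes were followed only in comparisons where their unadjusted p in the fit reported was under 0.05. Of their values, 64 and 55 lost the threshold, 0 and 12 gained it, and none under the settings run changed direction. The direction of the other genes was not followed. The wells may be pooled, and signal near background limits Cdc6, Cdc45, Gmnn, Birc5 and Cdkn1c, the dimmest of the 45.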

Other observations

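Values that belong to no comparison above concern genes whose direction differed between cultures. From day 3 to day 7 Mcm5 differed by 0.12 and -0.24 in female and male wild-type cells and by -0.05 and 0.24 in female and male Twist1+/- cells. Over the 22 other replication genes the medians were 0.04, -0.10, -0.23 and -0.06 in the same order, and over the 28 other mitosis genes -0.16, -0.29, -0.43 and -0.10.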
